A study of Mus musculus with 12 samples.

Results

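The genes described here encode the machinery that detects DNA in the cytosol and passes the signal through the adaptor STING. The set was named gene by gene for its place in this route, with no threshold on a measured value. The set was chosen with earlier results of these data known. It holds 10 genes of the 54446 in the count table: the sensors Cgas and Aim2, the PYHIN family genes Ifi203 and Ifi204, the adaptor Tmem173 (also called Sting1), the kinases Tbk1 and Ikbke, the transcription factor Irf3, and the inhibitors Trex1 and Samhd1. Of these, 9 had enough counts to be tested and Trex1 had none.

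Poly(A) RNA was sequenced from 12 tumours grown from Sq-1979, a mouse head and neck squamous carcinoma line. The cells were injected in Matrigel under the skin of the back of male C3H/HeN mice that were 6 weeks old, and the labels name no engineered allele. There were 4 treatment groups of 3 tumours: vehicle, anti-PD1 (a rat antibody that blocks the checkpoint receptor PD1 of T cells), SN-38, and both agents together (combination). SN-38 is what the drug irinotecan becomes in the body. It traps topoisomerase I on DNA and so leaves breaks, and the title of the series asks how it adds to anti-PD1 treatment. Neither doses nor times are given in the sources used here. All groups share a single line and a site under the skin, which is not the oral mucosa. Nothing in the labels says that each tumour grew in a different mouse. The p-values therefore measure only how far these samples spread, and some of that spread may be technical.

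DNA belongs in the nucleus and in mitochondria, and DNA in the cytosol is read as a sign of infection or damage. The enzyme cGAS binds it and makes the cyclic dinucleotide cGAMP, which binds STING on the endoplasmic reticulum. STING then moves to the Golgi and recruits the kinase TBK1, which phosphorylates the transcription factor IRF3, and IRF3 enters the nucleus and turns on type I interferon genes. AIM2 binds DNA too but builds an inflammasome instead. In tumours this route is best known for the interferon that dendritic cells and macrophages make on taking up tumour DNA, and much of its control acts on protein activity, which RNA levels do not show.

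Values are CPM, counts scaled to the size of each tumour's library, and differences are log2 values with their SE from edgeR's quasi-likelihood test. A gene is called where its p, adjusted over the 16833 genes tested, is under 0.05. DESeq2, an alternative test, gave an adjusted p to only 3779 to 16495 of them, depending on the comparison. The shares given for DESeq2 are over those genes only. Total counts ran from 21088288 to 28512141 per tumour. As a check of the tissue, the summed CPM of 12 squamous epithelial markers ran from 11000 to 21400 over the tumours. Immune content varied within groups. Summed T-cell markers were highest in anti-PD1 tumour 3 and combination tumour 3 (233 and 279 CPM, against at most 136 in the other tumours), and so were macrophage markers (1180 and 1300 CPM, against at most 784). Summed neutrophil markers ran from 11.6 to 138 CPM, highest in SN-38 tumour 1 (138) and combination tumour 2 (115), with Ly6g at most 0.221 CPM. The B-cell markers summed to 0.604 to 2.23 CPM, with Cd79a, Ms4a1 and Cr2 at most 0.288 CPM.

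Some of the genes lie close together. Aim2 (ENSMUSG00000037860.15, chr1:173350879-173466040, plus strand), Ifi204 (ENSMUSG00000073489.6, chr1:173747293-173766943, minus strand) and Ifi203 (ENSMUSG00000039997.16, chr1:173920407-173942672, minus strand) lie in 1 stretch on GRCm38. Ifi203 and Ifi204 are Ifi200 genes, and Aim2, a relative with another name, lies beside that cluster and is counted apart from it. Elsewhere lie Ikbke (ENSMUSG00000042349.13, chr1:131254343-131279606), Samhd1 (ENSMUSG00000027639.16, chr2:157097533-157135265), Irf3 (ENSMUSG00000003184.15, chr7:44997648-45002848), Cgas (ENSMUSG00000032344.17, chr9:78430526-78443237), Tbk1 (ENSMUSG00000020115.3, chr10:121546455-121586787) and Trex1 (ENSMUSG00000049734.9, chr9:109057933-109059734). The members' values were not equally secure. Of the 50-base words in the annotated transcripts of Ifi204, 20% also occur in other genes, 14.8% in Ifi211 and 5.44% in Mndal, and of those of Ifi203, 12.4% do. The share was 4.68% for Cgas, 95.8% for Trex1 and at most 2.35% for each of the other 6 genes. How reads were divided among such copies is unknown here, and GRCm38 is the genome of a strain other than C3H/HeN.

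The Ifi200 genes are themselves known targets of interferon, and the sequence before their starts was compared with that of the other members. A motif of GAAA, any 2 bases and GAAA again, the core of the element read by IRF and interferon-activated STAT factors, was searched on both strands in the 250 bases before each RefSeq start (RefSeq promoter table on GRCm38.p6). It occurs in 2.97% of 32817 windows. Of 11 Ifi200-cluster genes with a window, 9 hold a match, Ifi203 among them. Of the 7 members with a window that are not Ifi200 genes (Cgas, Aim2, Tbk1, Ikbke, Irf3, Trex1 and Samhd1), 0 do. The windows of Ifi206, Ifi208 and Ifi213 are near copies of each other, as are those of Ifi203 and Mndal. Those of Ifi205, Ifi207 and Ifi211 share long stretches too, as do those of Ifi214 and Ifi209. The 9 matches are therefore not independent and cannot be weighed against the share of all windows. At that share, 0 of 7 is also unremarkable. The 30 bases around the match are shown for Ifi203 and 5 of its neighbours so that the matched letters can be compared. Each is read on the gene's strand, with the matched letters in capitals. The windows are, in order, chr1:173942508-173942537, chr1:174031870-174031899, chr1:173491339-173491368, chr1:173741831-173741860, chr1:173673597-173673626 and chr1:173913064-173913093, on the minus strand except for Ifi208. No base of them lies in an annotated exon. The first capital lies 35, 134, 40, 41, 58 and 37 bases before the start.
Ifi203: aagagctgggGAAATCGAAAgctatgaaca
Ifi205: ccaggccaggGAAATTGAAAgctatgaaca
Ifi206: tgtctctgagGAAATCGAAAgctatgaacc
Ifi207: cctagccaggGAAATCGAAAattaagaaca
Ifi208: cgtctctgagGAAATCGAAAgctatgaacc
Ifi211: caaagccaggGAAATTGAAAgctatgaacg

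For Ifi203 the match belongs to the second of its RefSeq starts. Ifi202b and Ifi209 are the Ifi200 genes whose windows hold none. A motif of interferon-gamma signalling, TTC, any 3 bases and GAA, occurs in 7.01% of windows and among the members in that of Samhd1. A match is a description of letters and not evidence that a factor binds there.

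Per kilobase of exon, the levels of the 9 detected genes fell in a wide order. Samhd1 stood highest, with a median of 47.4 CPM per kb over the 12 tumours and a range from 37 to 88.4. Ifi203 followed at 29.8 (23.3 to 40.4), Ifi204 at 22.5 (14.5 to 41.1), Tmem173 at 18.8 (15.3 to 32.9), Tbk1 at 18.7 (17.3 to 20.6), Irf3 at 16.6 (15.8 to 18.9) and Aim2 at 12.2 (10.1 to 17.8). Ikbke at 5.92 (4.79 to 6.81) and Cgas at 5.19 (3.56 to 6.24) stood lowest. Neighbours in this order overlapped in range except Aim2 and Ikbke, whose ranges were apart. Length here is that of all annotated exons joined, which lowers the value of genes with long alternative ends. On this scale the sensor Cgas was the lowest of the 9 and the adaptor Tmem173 stood in the middle.

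**Figure D1:**
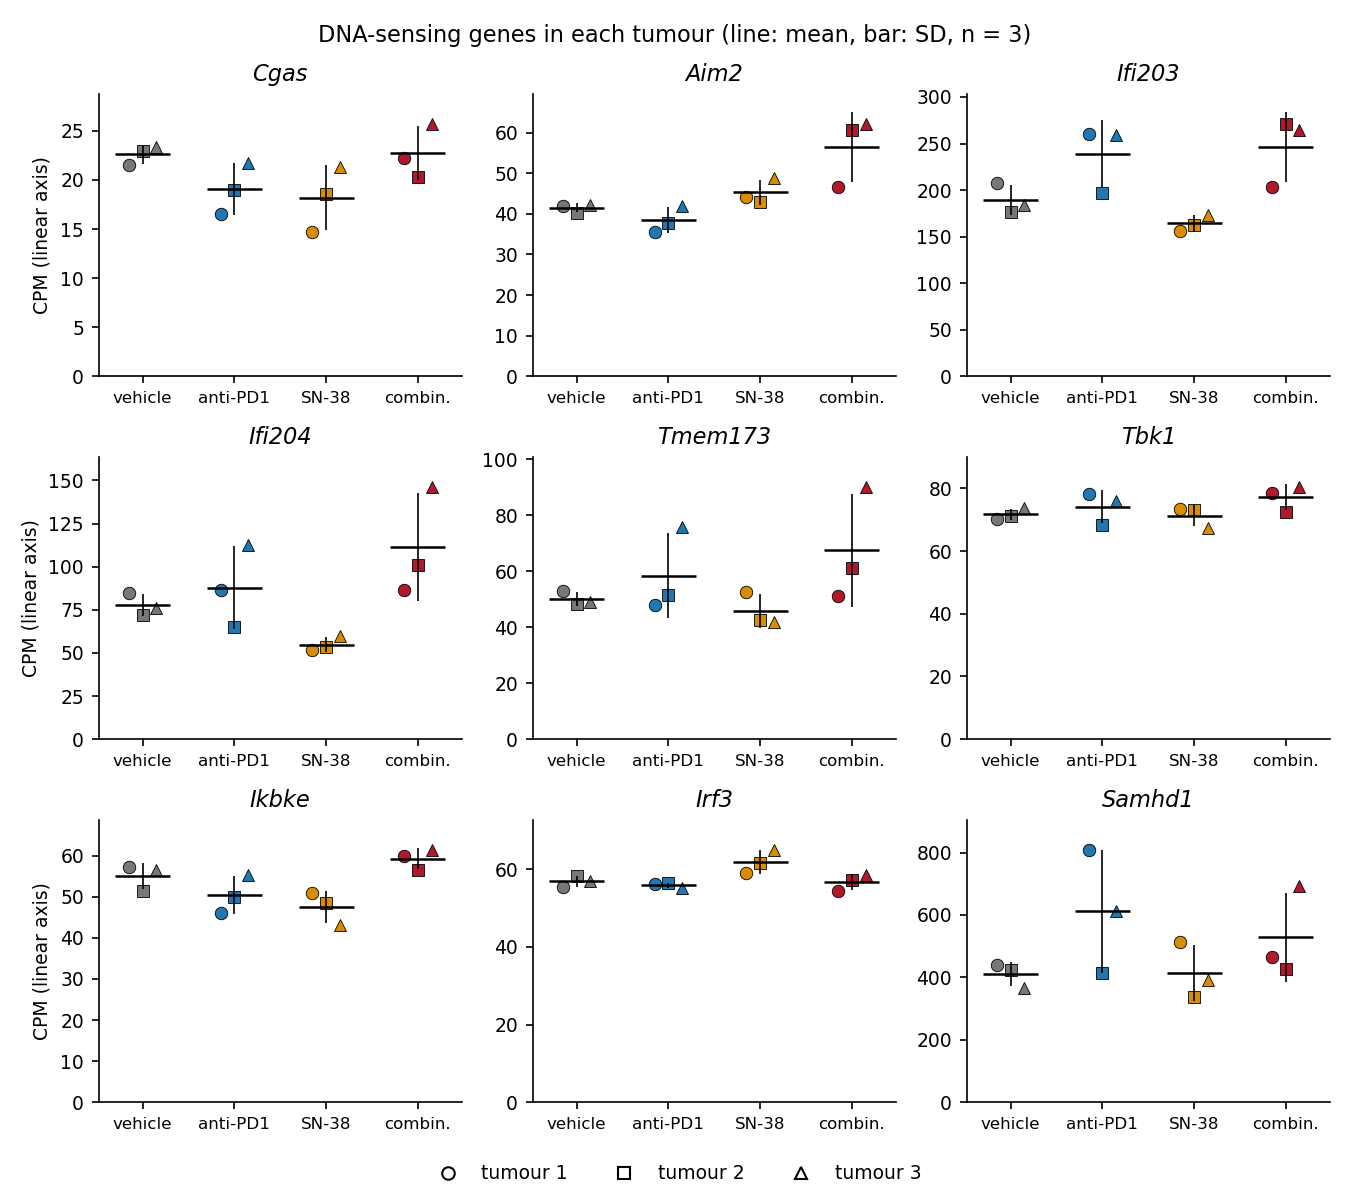
CPM of the 9 detected genes in the 12 tumours, on linear axes that start at 0, with points for single tumours shaped by tumour number, horizontal lines for group means and vertical bars for SD (n = 3). The combination group has the highest mean for 7 of the 9, all but Irf3 and Samhd1, and Irf3 and Tbk1 vary least.

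Cgas makes cGAMP when it binds double-stranded DNA. It measured 21.5, 23.0 and 23.3 CPM in vehicle tumours 1 to 3, 16.5, 19.0 and 21.8 CPM with anti-PD1, 14.7, 18.6 and 21.3 CPM with SN-38, and 22.2, 20.3 and 25.7 CPM with the combination. Its lowest values lay in the single-treatment groups and its highest in combination tumour 3. All SN-38 tumours were below all vehicle tumours, by a narrow margin, and every other pair of groups overlapped. Against vehicle the log2 difference was -0.24 ± 0.15 with anti-PD1 (adjusted p = 0.844), -0.31 ± 0.15 with SN-38 (adjusted p = 0.516) and 0.01 ± 0.15 with the combination (adjusted p = 0.984). The last of these has a 95% interval from -0.32 to 0.34, which leaves room for a change of either sign.

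Aim2 is the DNA receptor of an inflammasome that activates caspase-1. It measured 41.9, 40.2 and 42.3 CPM with vehicle, 35.5, 37.8 and 41.9 CPM with anti-PD1, 44.2, 43.0 and 48.8 CPM with SN-38, and 46.6, 60.7 and 62.2 CPM with the combination. Every combination tumour was above every vehicle and every anti-PD1 tumour, and the SN-38 tumours lay just above the vehicle tumours. The combination differed from vehicle by 0.45 ± 0.11 (95% interval 0.20 to 0.69, unadjusted p = 0.00214, adjusted p = 0.296), and from anti-PD1 alone by 0.56 ± 0.11 (unadjusted p = 0.000428, adjusted p = 0.348). From SN-38 alone it differed by 0.32 ± 0.11 (adjusted p = 0.618), with combination tumour 1 inside the SN-38 range. Averaged over antibody status, SN-38 went with a difference of 0.34 ± 0.08 (adjusted p = 0.209). DESeq2 called Aim2 in 3 of these, against vehicle (adjusted p = 0.0395), against anti-PD1 (adjusted p = 0.0053) and for the averaged SN-38 difference (adjusted p = 0.0153), and limma voom called it in none. Without the T-cell-rich anti-PD1 tumour 3 and combination tumour 3, the differences from vehicle and from anti-PD1 were 0.37 and 0.55.

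Ifi204 is the mouse gene usually set beside human IFI16, a DNA-binding protein reported to work with STING. It measured 84.7, 72.1 and 75.9 CPM with vehicle, 86.2, 65.0 and 113 CPM with anti-PD1, 51.5, 53.5 and 59.5 CPM with SN-38, and 86.7, 101 and 146 CPM with the combination. The SN-38 tumours formed the lowest group with no overlap with any other, and the combination tumours were all above vehicle. The combination exceeded SN-38 alone by 1.02 ± 0.21 (unadjusted p = 0.000625, adjusted p = 0.618). This was the widest difference of any member in any comparison, and DESeq2 called it (adjusted p = 0.0162) where limma voom did not (adjusted p = 0.631). SN-38 alone differed from vehicle by -0.50 ± 0.21 (adjusted p = 0.475) and the combination from vehicle by 0.52 ± 0.21 (adjusted p = 0.368). Without combination tumour 3 the last was 0.28 and the difference from SN-38 was 0.78.

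Ifi203 encodes another PYHIN protein, of less settled function. It measured 208, 176 and 184 CPM with vehicle, 260, 196 and 259 CPM with anti-PD1, 156, 163 and 174 CPM with SN-38, and 203, 271 and 264 CPM with the combination. The groups without overlap were again those with SN-38 alone, below vehicle by little, and below anti-PD1 and the combination by more. The combination exceeded SN-38 by 0.58 ± 0.14 (adjusted p = 0.618, DESeq2 adjusted p = 0.0414) and vehicle by 0.38 ± 0.14 (adjusted p = 0.344). Anti-PD1 averaged over SN-38 status went with 0.46 ± 0.10 for Ifi203 (adjusted p = 0.732, DESeq2 adjusted p = 0.0268) and 0.60 ± 0.15 for Ifi204 (adjusted p = 0.732, DESeq2 adjusted p = 0.0493).

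Tmem173 (ENSMUSG00000024349.9, chr18:35733679-35740554, minus strand) encodes STING. It measured 53.0, 48.3 and 48.9 CPM with vehicle, 47.9, 51.6 and 76.0 CPM with anti-PD1, 52.7, 42.5 and 42.0 CPM with SN-38, and 51.3, 61.3 and 90.2 CPM with the combination. The groups overlapped in every comparison, and the 2 highest tumours were anti-PD1 tumour 3 and combination tumour 3, those richest in macrophage and T-cell markers. The combination differed from SN-38 by 0.56 ± 0.22 (adjusted p = 0.618) and from vehicle by 0.43 ± 0.22 (adjusted p = 0.419). Without combination tumour 3 these became 0.30 and 0.17, and without anti-PD1 tumour 3 the anti-PD1 difference from vehicle went from 0.22 to -0.01.

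The macrophage score, the mean log2 CPM of 10 macrophage markers, followed Tmem173 over the 12 tumours (Pearson r = 0.901, permutation p = 0.00052, adjusted p = 0.00936 over 18 relations of 9 genes with 2 scores). Spearman's rho was 0.734 (permutation p = 0.00909, adjusted p = 0.164). Without the 2 tumours farthest from the median score, the same anti-PD1 tumour 3 and combination tumour 3, r was 0.607 over 10 tumours (permutation p = 0.0613), so the relation rests largely on those tumours. With group means subtracted, r was 0.867 over all 12 tumours, the same 2 included. Those 2 tumours were also highest in T-cell markers and in dendritic-cell markers (156 and 190 CPM, against at most 73.7 in the other tumours). Relations with these 2 cell types were not tested, so their part and that of macrophages cannot be told apart. Ifi204 had r = 0.764 (permutation p = 0.00369, adjusted p = 0.0332) and rho = 0.601 (permutation p = 0.0435, adjusted p = 0.261), and r = 0.39 without those tumours. For Cgas r was 0.384 (permutation p = 0.214, adjusted p = 0.386) with rho = 0.294 (permutation p = 0.355), and -0.00476 without them. Ikbke had r = 0.654 (permutation p = 0.021, adjusted p = 0.102), and 0.608 without the same 2 tumours. Ifi203 had r = 0.644 (permutation p = 0.0226, adjusted p = 0.102), and 0.385 without them. For Tbk1, Aim2, Samhd1 and Irf3 r was 0.556, 0.504, 0.397 and -0.321, and none of these passed. None of the 9 genes passed against the squamous score. In bulk tissue, fewer cells of a type and less RNA per cell cannot be told apart, and the part of macrophage content in the treatment differences of these genes was not tested.

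**Figure D2:**
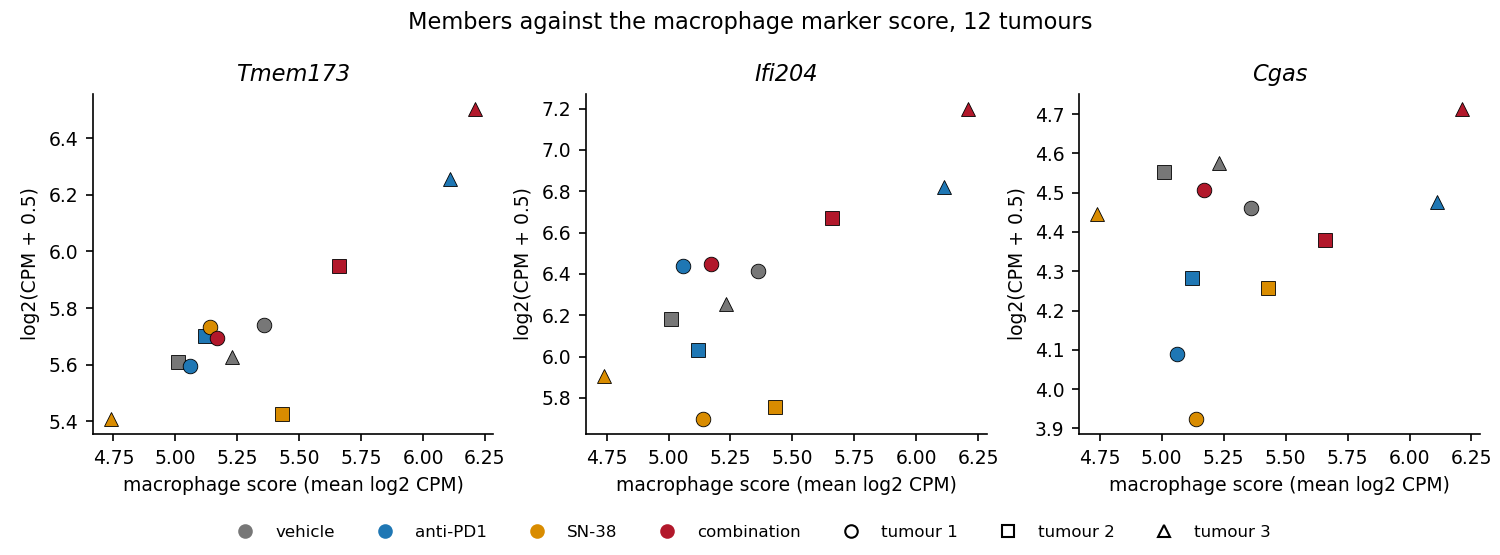
Level of Tmem173, Ifi204 and Cgas, log2(CPM + 0.5), against the macrophage score (mean log2 CPM of 10 markers) in 12 tumours, coloured by group and shaped by tumour number. Tmem173 follows the score (r = 0.901) largely through anti-PD1 tumour 3 and combination tumour 3. For Cgas r was 0.384, which did not pass (permutation p = 0.214, adjusted p = 0.386).

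The genes whose log2 CPM most closely followed that of Tmem173 and of Cgas over the 12 tumours were compared. Among 13372 candidates, those most like Tmem173 were Tspan33 (r = 0.974), Ctss, a lysosomal protease of antigen-presenting cells (r = 0.966), and Snx20 (r = 0.963). Those most like Cgas were Psph, an enzyme of serine synthesis (r = 0.967), Klhdc4 (r = 0.958) and Tcof1, a nucleolar factor of ribosomal RNA synthesis (r = 0.956). These are the extremes of many correlations that share depth and tumour composition, and they are given as a description.

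Tbk1 encodes the kinase that phosphorylates STING and IRF3. It measured 70.3, 71.2 and 73.6 CPM with vehicle, 78.2, 68.3 and 76.1 CPM with anti-PD1, 73.3, 73.1 and 67.5 CPM with SN-38, and 78.6, 72.5 and 80.5 CPM with the combination. All groups overlapped, and the highest tumour was 1.19 times the lowest. The difference from vehicle was -0.01 with SN-38 (95% interval -0.17 to 0.15) and 0.11 with the combination (95% interval -0.06 to 0.27).

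Ikbke encodes IKK-epsilon, a kinase close to TBK1 that can act in its place and is itself induced by inflammatory signals. It measured 57.3, 51.4 and 56.6 CPM with vehicle, 46.0, 49.9 and 55.4 CPM with anti-PD1, 50.8, 48.4 and 43.2 CPM with SN-38, and 59.9, 56.5 and 61.4 CPM with the combination. The combination tumours were above all tumours of either single treatment, and the SN-38 tumours were below all vehicle tumours by a small margin. The combination differed from SN-38 by 0.32 ± 0.09 (adjusted p = 0.618) and from anti-PD1 by 0.23 ± 0.09 (adjusted p = 0.589), and SN-38 differed from vehicle by -0.21 ± 0.09 (adjusted p = 0.473). Neither DESeq2 nor limma voom called any of these.

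Irf3 encodes the transcription factor at the end of the route, which is made in most cells and controlled by phosphorylation. It measured 55.4, 58.2 and 57.0 CPM with vehicle, 56.1, 56.4 and 55.1 CPM with anti-PD1, 59.0, 61.5 and 65.0 CPM with SN-38, and 54.4, 57.1 and 58.4 CPM with the combination. The SN-38 tumours lay above all others, against the direction of Ifi204 and Ikbke, but the size was small: 0.12 ± 0.06 over vehicle (95% interval -0.02 to 0.26, adjusted p = 0.549). With anti-PD1 and with the combination the intervals against vehicle were -0.16 to 0.11 and -0.14 to 0.13.

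Samhd1 encodes an enzyme that breaks down deoxynucleotides and limits DNA from reaching the sensors, and it is abundant in myeloid cells. It measured 441, 423 and 366 CPM with vehicle, 809, 414 and 612 CPM with anti-PD1, 512, 339 and 391 CPM with SN-38, and 465, 426 and 693 CPM with the combination. Anti-PD1 tumour 1 was the highest and every pair of groups overlapped. Anti-PD1 differed from vehicle by 0.58 ± 0.26 (adjusted p = 0.844), and by 0.32 without anti-PD1 tumour 1. That tumour held 591 CPM of macrophage markers, within the vehicle range of 582 to 739. Its T-cell markers (136 CPM) were above the vehicle range of 86.1 to 105 and its fibroblast markers (6460 CPM) below that of 24300 to 32500, and their part in the Samhd1 value was not tested.

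Trex1 encodes the main exonuclease that removes DNA from the cytosol, and its value in this table cannot be read as its expression. All 1147 bases of its annotated exons lie inside exons of Atrip on the same strand, and Trex1 had 0 counts in all 12 tumours. In each tumour 3 counts, the limit that a count of 0 allows by counting error, would be 0.103 to 0.139 CPM. Atrip itself held 372 to 507 counts, 15.3 to 18.5 CPM. How reads that fit both genes were counted is unknown here.

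**Figure D3:**
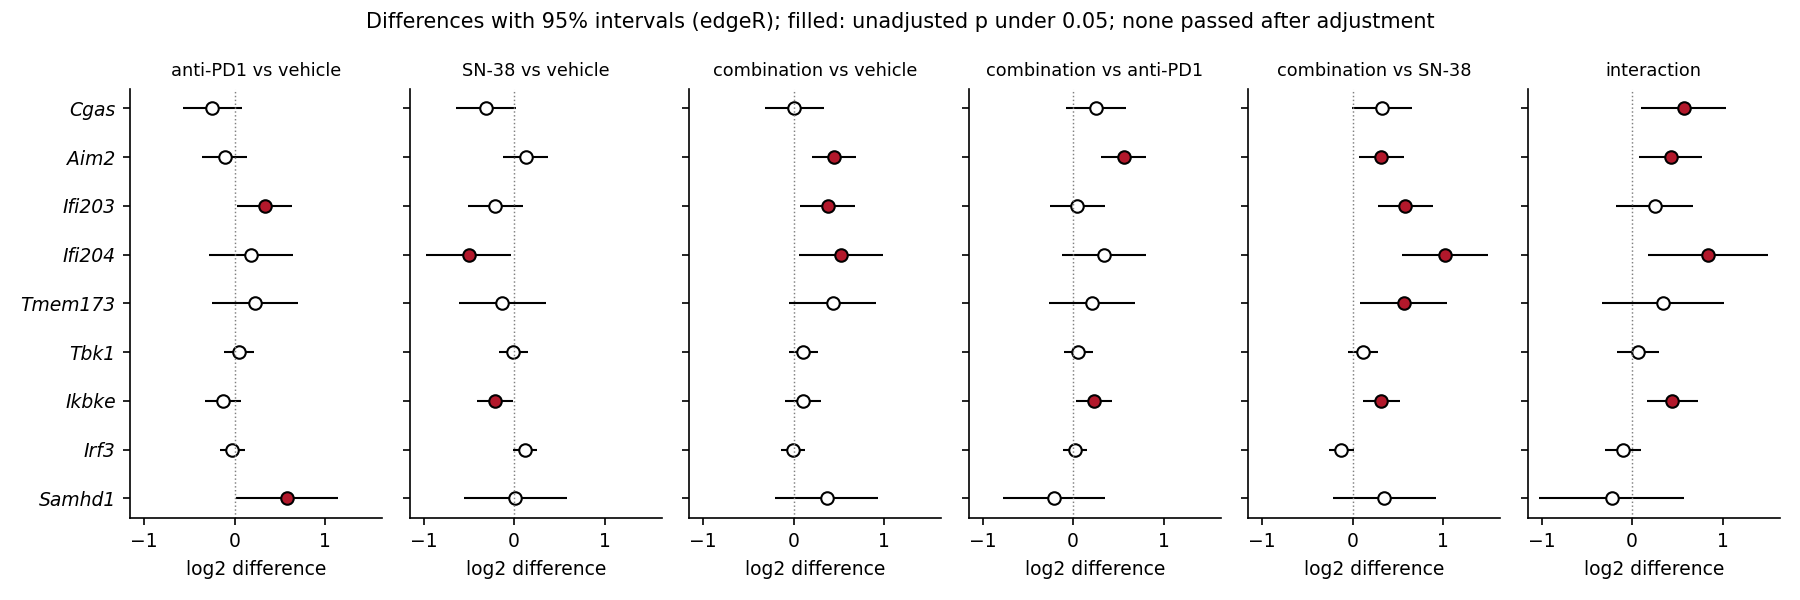
Log2 differences of the 9 tested genes in 5 comparisons and the interaction, with 95% intervals from edgeR, all 12 tumours in the fit. Filled points have an unadjusted p under 0.05, and no point passed after adjustment. In the comparison of the combination with SN-38, 5 are filled, all above 0.

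The comparison with anti-PD1 alone asks what checkpoint blockade did to these genes. By edgeR, 0 of 9 were called, as were 0% of all genes tested. DESeq2 and limma voom called 0 as well, against 0.349% and 0% of genes, with no adjusted p from DESeq2 for Cgas. At an unadjusted p under 0.05 there were 2, Ifi203 (0.33 ± 0.14) and Samhd1, against 5.6% of all genes. The median difference was 0.05 for the 9 genes and 0.01 for all genes. Means were higher for 5 of 9, against 51.6% of all genes. None of the 9 had ranges apart from vehicle, against 7.99% of genes higher and 9.2% lower. Leaving out anti-PD1 tumour 1 or 3, or vehicle tumour 2 or 3, left 0 at an unadjusted p under 0.05. The shares of all genes were then 2.35%, 6.18%, 2.59% and 2.68%, in that order. Leaving out vehicle tumour 1, SN-38 tumour 3 or combination tumour 1 left 1, against 5.06%, 6.68% and 5.53% of all genes.

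With SN-38 alone, which damages DNA, 3 of 9 genes had higher means than vehicle, against 51.2% of all genes. By edgeR 0 of 9 were called, against 0.00594% of all genes, and DESeq2 and limma voom called 0 too, against 1.91% and 0.00594%. Ifi204 and Ikbke had an unadjusted p under 0.05, both lower, against 10% of all genes. Ranges lay wholly below vehicle for 4 genes (Cgas, Ifi203, Ifi204 and Ikbke), against 7.96% of all genes, and wholly above it for Aim2 and Irf3, against 11.1%. The median difference was -0.13, against 0.01 for all genes. Leaving out vehicle tumour 1 or 3, or SN-38 tumour 2, left 0 of the 9 at an unadjusted p under 0.05. The shares of all genes were then 7.4%, 6.18% and 11.7%, in that order. Leaving out anti-PD1 tumour 2 left 1, against 8.97% of all genes. The T-cell and macrophage markers summed to 76.5 to 110 and 434 to 671 CPM here, against 86.1 to 105 and 582 to 739 CPM with vehicle. Neutrophil markers summed to 14 to 138 against 11.6 to 19.7 CPM. Fibroblast markers summed to 9230 to 65700 against 24300 to 32500 CPM. The part of cell content in the SN-38 differences was not tested.

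With the combination, 8 of 9 genes had higher means than vehicle, against 51.6% of all genes, with a median difference of 0.37 against 0.01. By edgeR 0 were called, as were 0% of all genes. DESeq2 called Aim2 alone, against 1.16% of genes, and limma voom 0, against 0%. Aim2, Ifi203 and Ifi204 had an unadjusted p under 0.05, against 12.9% of genes. Aim2 and Ifi204 had ranges wholly above vehicle, against 11.7%, and none wholly below, against 11.8%. Leaving out combination tumour 3, vehicle tumour 2 or vehicle tumour 3 left 1 at an unadjusted p under 0.05. The shares of all genes were then 13.5%, 7.8% and 7.09%, in that order. Endothelial markers summed to 153 to 180 CPM in the combination tumours and 111 to 134 CPM in vehicle tumours, neutrophil markers to 31.3 to 115 against 11.6 to 19.7 CPM, and fibroblast markers to 6450 to 18500 against 24300 to 32500 CPM. The part of these cell types in the differences was not tested.

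Between the combination and anti-PD1 alone, Aim2 and Ikbke stood out by range, both wholly higher in the combination, against 6.93% of all genes. None was wholly lower, against 5.3%, and 8 of 9 had higher means, against 50.3%. These 2 also had an unadjusted p under 0.05, against 7.96%. By edgeR 0 of 9 were called, against 0%, by DESeq2 Aim2 alone, against 0.461%, and by limma voom 0, against 0%. The median difference was 0.21, against 0.00115 for all genes. Endothelial markers were wholly higher in the combination (153 to 180 against 112 to 143 CPM) and neutrophil markers mostly so (31.3 to 115 against 12.2 to 36.5 CPM), and their part in Aim2 and Ikbke was not tested. Leaving out combination tumour 3, or anti-PD1 tumour 1 or 2, left 1 at an unadjusted p under 0.05. The shares of all genes were then 9.79%, 7.37% and 4.2%, in that order.

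Between the combination and SN-38 alone, the members with an unadjusted p under 0.05 were 5 of 9, against 7.92% of all genes: Ifi204, Ifi203, Ikbke, Aim2 and Tmem173, all higher. Ranges were wholly higher for Ifi203, Ifi204 and Ikbke, against 5.08%, and wholly lower for Irf3, against 4.54%. By edgeR 0 were called, against 0%, by DESeq2 Ifi203 and Ifi204, against 0.309%, and by limma voom 0, against 0%. Means were higher for 8 of 9, against 48.3% of all genes, and the median difference was 0.32, against -0.01. Without combination tumour 3 or SN-38 tumour 2, 3 of 9 had an unadjusted p under 0.05, against 5.93% and 8.18% of all genes. This comparison and the one of SN-38 with vehicle share the SN-38 tumours. Macrophage markers summed to 620 to 1300 CPM in the combination and 434 to 671 CPM with SN-38, neutrophil markers to 31.3 to 115 and 14 to 138 CPM, and endothelial markers, wholly higher, to 153 to 180 and 125 to 137 CPM. Their part in the differences was not tested.

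Whether the antibody's difference depended on SN-38 was tested by the interaction, the difference with SN-38 minus that without it. It was above 0 for 7 of 9 genes, against 48.2% of all genes. By edgeR 0 of 9 were called, against 0%, and DESeq2 and limma voom called 0, against 0.312% and 0%. DESeq2 gave no adjusted p for Cgas there. At an unadjusted p under 0.05 there were 4, against 7.63% of all genes, all positive: Ikbke (0.45 ± 0.13, adjusted p = 0.597), Ifi204 (0.84 ± 0.30, adjusted p = 0.631), Aim2 (0.43 ± 0.16, adjusted p = 0.633) and Cgas (0.57 ± 0.21, adjusted p = 0.633). Without combination tumour 3 there were 2, against 6.78% of all genes. The averaged SN-38 difference was above 0 for 5 of 9 genes, against 50.2% of all genes. For it edgeR called 0 of 9 (0% of all genes), limma voom 0 (0%) and DESeq2 Aim2 (1.38%), and Aim2 alone had an unadjusted p under 0.05, against 10.5%. The averaged antibody difference was above 0 for 8 of 9, against 49.1%. For it edgeR and limma voom again called 0 (0% each) and DESeq2 Ifi203 and Ifi204 (0.37%). DESeq2 gave no adjusted p there for Cgas, Aim2, Tmem173, Ikbke and Irf3. Ifi203, Ifi204, Tmem173 and Samhd1 had an unadjusted p under 0.05 there, all higher, against 6.67%. Without combination tumour 3, SN-38 tumour 2 or SN-38 tumour 3 there were 2, against 5.26%, 6.94% and 5.43% of all genes.

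The other genes of the route were read from 5 lists with 85 genes, of which 81 were tested. EdgeR and limma voom called 0 of the 81 in every comparison. In the list of PYHIN genes and other DNA sensors, 4 of 20 tested genes had higher means with SN-38 than with vehicle, against 51.2% of all genes, and 16 had lower ones. Ranges lay wholly below vehicle for 8, against 7.96%, and the median was -0.29, against 0.01. Against SN-38 alone, the combination had 17 of 20 higher, 11 with an unadjusted p under 0.05 and 11 with ranges wholly above, against 7.92% and 5.08% of all genes, and the median was 0.60. Leaving out combination tumour 3 brought the 11 at an unadjusted p under 0.05 to 5, against 5.93% of all genes. Leaving out SN-38 tumour 1 or 3 brought them to 7, against 7.42% and 8.8%. Ifi211 stood at 19.6 ± 0.863 CPM with SN-38, 28.6 ± 2.9 CPM with vehicle and 33.3 ± 6.32 CPM with the combination (n = 3 each). Its difference of the combination from SN-38 was 0.76 ± 0.17 (adjusted p = 0.618, DESeq2 adjusted p = 0.0346). Ifi202b and Ifi214 differed by 0.54 ± 0.15 and 1.52 ± 0.44. Some of these genes share sequence with Ifi203 and Ifi204, as given above, so their values are not independent of each other. Lrrfip1, a nucleic acid binding protein, stood at 105 ± 9.01 CPM with the combination and 84.5 ± 1.08 CPM with vehicle, a difference of 0.31 ± 0.09 (adjusted p = 0.304). Prkdc, the catalytic subunit of DNA-dependent protein kinase, differed from vehicle by 0.42 ± 0.14 with anti-PD1 and 0.47 ± 0.14 with SN-38.

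**Figure D4:**
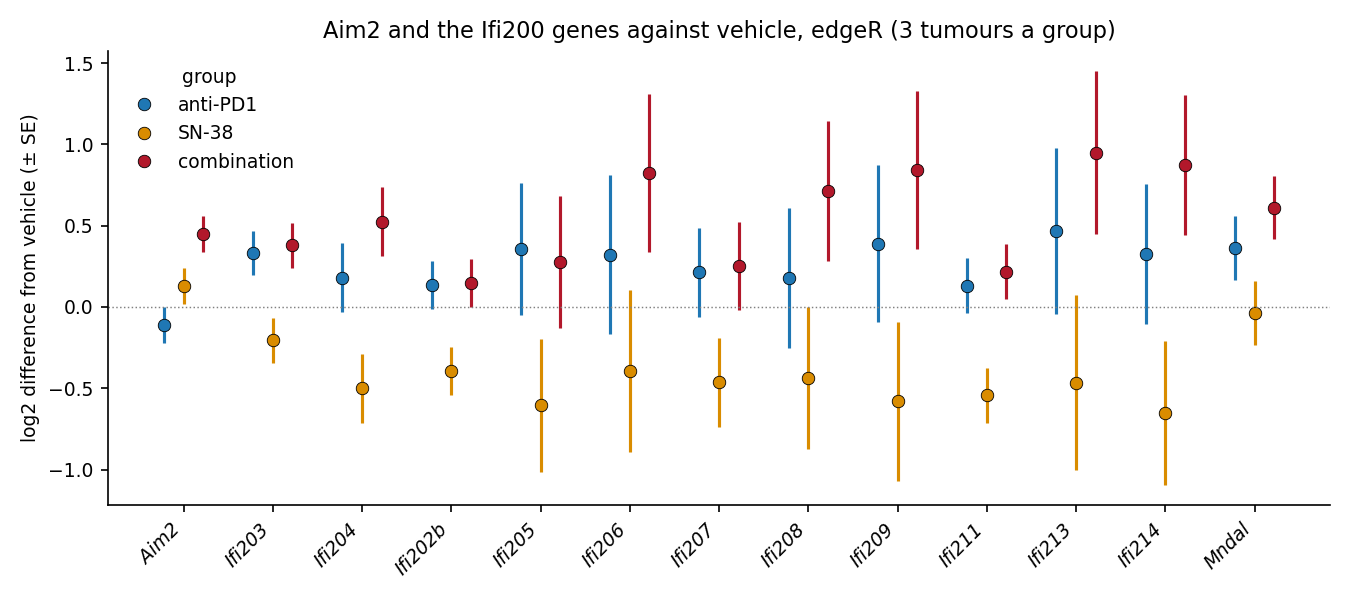
Log2 difference from vehicle (± SE, edgeR, 3 tumours a group, vehicle tumours shared) of Aim2 and the genes of the Ifi200 cluster with anti-PD1, SN-38 and the combination. With SN-38 the Ifi200 points lie below 0, that of Mndal nearest to it, and Aim2 lies above 0, while the combination points lie above 0. No gene passed after adjustment.

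In the inflammasome list, which holds the partners of AIM2, values lay on both sides of 0. Of 7 tested genes, 5 had higher means with the combination than with vehicle, against 51.6% of all genes, and 2 had an unadjusted p under 0.05, against 12.9%. Casp4, an inflammatory caspase, differed by 0.43 ± 0.19 and Il18, a cytokine released by inflammasomes, by -0.90 ± 0.40 (adjusted p = 0.379 and 0.387).

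Among 21 partners and regulators of STING and TBK1, DESeq2 called Usp18 for SN-38 against vehicle and for the combination against SN-38. Of the genes to which DESeq2 gave an adjusted p, 1.91% and 0.309% were called there. DESeq2 also called Dtx4 for the combination against vehicle and against anti-PD1 (1.16% and 0.461%) and for the averaged SN-38 difference (1.38%). Dtx4 encodes a ubiquitin ligase reported to mark TBK1 for degradation, and stood at 122 ± 15.8 CPM with the combination, 246 ± 45.7 CPM with anti-PD1 and 213 ± 9.83 CPM with vehicle. It differed by -1.01 ± 0.22 from anti-PD1 (adjusted p = 0.382, DESeq2 adjusted p = 0.00613) and by -0.80 ± 0.22 from vehicle (adjusted p = 0.296, DESeq2 adjusted p = 0.0476). Usp18, an interferon-induced protease that dampens the interferon receptor, stood at 112 ± 7.23 CPM with SN-38, 166 ± 8.2 CPM with vehicle and 182 ± 34.6 CPM with the combination. Its difference was -0.57 ± 0.15 for SN-38 against vehicle (DESeq2 adjusted p = 0.0435) and 0.70 ± 0.15 for the combination against SN-38 (DESeq2 adjusted p = 0.0282). Optn, an adaptor that carries TBK1, and Zdhhc1, a STING partner, differed by 0.47 ± 0.19 and 0.37 ± 0.13 between the combination and vehicle.

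Of 16 genes for nucleases and for cGAMP breakdown and transport, none was called by any of the 3 tools. In some comparisons DESeq2 gave no adjusted p for some of these genes. Banf1, whose protein coats DNA and limits access of cGAS, differed by -0.52 ± 0.15 with SN-38 from vehicle (adjusted p = 0.314, DESeq2 adjusted p = 0.0554). Lrrc8c, a subunit of a channel that passes cGAMP between cells, differed by 0.64 ± 0.21 with the combination from vehicle and by 0.80 ± 0.22 from SN-38 (adjusted p = 0.337 and 0.618).

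Most genes downstream of the route had lower means with SN-38 alone than with vehicle or the combination. Ifnb1, the interferon that IRF3 induces, was at most 0.241 CPM in any tumour and could not be tested. Of 17 tested downstream genes, 14 had lower means with SN-38 than with vehicle, 8 with ranges wholly below, against 7.96% of all genes, and 6 had an unadjusted p under 0.05, against 10%. With the combination 14 had higher means than with SN-38, against 48.3% of all genes, 11 with ranges wholly above, against 5.08%, and 11 had an unadjusted p under 0.05, against 7.92%. The 11 became 4 without combination tumour 3, against 5.93% of all genes, and 7 without SN-38 tumour 3, against 8.8%. Isg15, an interferon-induced ubiquitin-like protein, stood at 108 ± 7.37 CPM with vehicle, 105 ± 31.6 CPM with anti-PD1, 61.7 ± 3.26 CPM with SN-38 and 110 ± 26.5 CPM with the combination. Its SN-38 tumours were below all others. It differed by -0.81 ± 0.20 for SN-38 against vehicle (adjusted p = 0.306, DESeq2 adjusted p = 0.0217) and by 0.84 ± 0.20 for the combination against SN-38 (adjusted p = 0.618, DESeq2 adjusted p = 0.0482). Cxcl10, a chemokine that draws T cells, stood at 51.0 ± 10.4 CPM with SN-38 and 153 ± 80.5 CPM with the combination, a difference of 1.59 ± 0.42 (adjusted p = 0.618, DESeq2 adjusted p = 0.0352). Rsad2, the antiviral enzyme viperin, differed by -1.03 ± 0.30 and 1.24 ± 0.30 in the same comparisons as Isg15.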

How the data were processed

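The authors deposited whole-number read counts per gene, not normalized, for each of 12 tumours. Per the labels' protocols, total RNA was purified on columns and a stranded mRNA kit was used. Per the submitters' processing notes, cutadapt 2.4, STAR 2.7.2a and the build GRCm38 were used. How reads were counted, with which strand setting and against which annotation release, is not given in the sources used here. Identifiers were matched to GENCODE M21, 54409 of 54446, for symbols, positions and exon lengths.

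edgeR 4.0.16 (R 4.3.3) removed low genes with filterByExpr, which left 16833 with at least 99.9% of the counts, scaled with TMM (0.97 to 1.026) and fitted all 12 tumours with a mean per group and a robust quasi-likelihood test. Benjamini-Hochberg adjustment covered all genes tested, with a threshold of 0.05. SE is the log2 difference divided by the square root of F. DESeq2 1.42.0 and limma 3.58.1 (voom) were alternatives, beside other scaling, no filter, only the compared groups, a replicate block and tumours left out. No 2 tumours of a group agreed within counting noise (lowest chi-square 11.8 per degree of freedom). The test was checked on simulated counts. Scores are mean log2(CPM + 0.5), with permutation tests of 100000 resamples. Differences between overlapping or near-identical genes are uncertain.

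The members and lists were chosen with earlier results of these data known. All members are named. From each list, genes past the threshold are named or, where none passed, up to 3 with the smallest p in a comparison, and for Cgas and Tmem173 the 3 genes most like each by Pearson r among genes whose mean log2 CPM reached 1. Depth and the number of tumours per group set the precision.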

Additional observations from a re-analysis of the deposited data

How the results depend on the processing

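With edgeR, 0 members and 0 genes of the pathway lists were called in each of the 8 comparisons under every alternative run: other size factors, no filter, only the compared groups (the 5 pairwise comparisons), each tumour left out in turn (0 to 0), and both pairs of tumours that stood apart in T-cell or neutrophil markers left out. limma voom also called 0. In the main runs of edgeR and limma voom, 0% to 0.00594% of all genes were called. For DESeq2, the shares in brackets are over all genes to which it gave an adjusted p. DESeq2 called 1 member for the combination against vehicle (1.16%), 1 against anti-PD1 (0.461%) and 2 against SN-38 (0.309%). It called 1 member for the averaged SN-38 difference (1.38%) and 2 for the averaged antibody difference (0.37%). Of the pathway genes it called 4 for SN-38 against vehicle (1.91%) and 1 for the averaged SN-38 difference (1.38%). For the combination it called 1 pathway gene against vehicle (1.16%), 1 against anti-PD1 (0.461%) and 5 against SN-38 (0.309%). The cause was not tested. Of 72 member differences, 53 kept their sign under all alternatives and 19 did not, all of them uncalled, with main p-values of 0.322 or more.

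With the replicate number as a block, 0 members and 0 pathway genes were called. Deviations of tumours from their group means were correlated between groups. For 18 same-numbered pairs r ran from -0.514 to 0.714 (median -0.0425), and for 36 other pairs from -0.718 to 0.537 (median 0.0338). The highest value was that of anti-PD1 tumour 3 with combination tumour 3. These pairs share tumours, so whether the numbers mark a shared batch cannot be told from them. With 3 tumours a group, the intervals of Ifi204, Tmem173 and Samhd1 are wide, and Trex1 could not be measured.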
